A study of Mus musculus with 12 samples.

Results

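The transcripts described here are 10 genes that mark the enteroendocrine cells of the gut: the peptide hormone genes Cck, Gcg, Pyy, Sst, Insl5, Nts and Tac1, the serotonin synthesis enzyme Tph1, and the granins Chga and Chgb. They were picked by name, with no measured value entering the rule, though with earlier results of these data known. All 10 were found among the 55376 genes of the count table. Total RNA was sequenced from whole frozen proximal colon of mice aged 12 weeks, with 6 EPR fl/fl and 6 EPR cKO animals and 1 library per animal. EPR is an epithelial long noncoding RNA with a short open reading frame, listed in the table as Smim31. Both groups carry loxP sites around the EPR promoter and exon 1. The EPR cKO mice carry in addition the CDX2P-NLS Cre transgene, in which human CDX2 regulatory sequence drives Cre. The paper describes its expression in epithelial cells from the distal ileum onward through the large intestine. Whether EPR was kept in other cells of the tissue was not measured. The targeted allele came from embryonic stem cells, and the founders were bred to C57BL/6 mice. The comparison addresses whether loss of EPR from the colon epithelium goes with a change in the hormone-producing lineage.

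Enteroendocrine cells are scattered, secretory cells of the gut epithelium that store peptide hormones or serotonin in dense-core granules and release them on contact with nutrients, bile acids or microbial products. They arise from crypt progenitors that pass through a brief stage of Neurog3 expression, and their subtypes are named for their products: L cells make proglucagon peptides and peptide YY, D cells make somatostatin, and enterochromaffin cells make serotonin and often substance P. Somatostatin and substance P are also made by neurons of the gut wall, so in whole tissue the transcripts of Sst and Tac1 have more than 1 possible source. In bulk RNA, fewer cells of a type and less RNA per cell cannot be told apart.

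The libraries held between 13093904 and 33211041 counts over genes. EPR was covered by 297 to 1474 reads in the EPR fl/fl libraries and by 0 to 10 reads in the EPR cKO libraries. One library stood apart from the others of its group: in EPR cKO 1 the summed level of the 10 smooth muscle genes, in CPM (counts scaled to the TMM-adjusted library size), was 9709 CPM, against 1086 to 2824 CPM in the other 5 EPR cKO libraries and 3231 to 5642 CPM in EPR fl/fl. Its summed level of 14 enteric neuron genes was 317 CPM, against 34.3 to 86.2 CPM in the other EPR cKO libraries and 86.7 to 168 CPM in EPR fl/fl. A tissue composition score, the mean log2 CPM of 12 epithelial genes minus that of the smooth muscle genes, was 0.93 ± 0.26 (SD, n = 6) in EPR fl/fl and 2.12 ± 1.32 (SD, n = 6) in EPR cKO (two-sided exact permutation test over libraries, p = 0.0563), and −0.30 in EPR cKO 1. Because the score itself moves with the group, a fit with both cannot fully separate them. Results below are therefore also given without EPR cKO 1, or with the score as a covariate, wherever this changed a call or a direction. In the fit without EPR cKO 1, 21.8% of all tested genes were called, 7.44% higher and 14.4% lower, against 2.46% in all with the 12 libraries.

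The sequence before the transcription start of each gene was taken from RefSeq (build GRCm38.p6), which held 13 start sites for the 10 genes. The 150 bases before each start were searched on both strands for TGACG, the core of the cyclic AMP response element, for its full form TGACGTCA, which contains the core, and for CAGATG, an E-box of the kind bound by NEUROD1-type factors. The core was present for 6 of the 10 genes (Cck, Tac1, Tph1, Chga, Chgb and Sst) and in 13.4% of 32475 distinct windows of the same length. This background did not cover every chromosome, and it was counted per window, while the 10 genes had 13 windows. The full form was present for 2 genes, starting 72 bases before the start of Chgb and 48 bases before that of Sst, and in 1.37% of the background windows. CAGATG was present for Cck and Gcg and in 8.75% of the background windows. Shown here, because the later results turn on them, are the windows of Cck, the gene that passed the test, of Gcg and Pyy, the paired products of L cells, and of Chga and Tph1, which varied together across libraries. Only windows that do not overlap an exon of the deposited annotation are printed, each 5′ to 3′ in the direction of transcription, with matches in capitals.
Cck, chr9:121495695-121495844, minus strand: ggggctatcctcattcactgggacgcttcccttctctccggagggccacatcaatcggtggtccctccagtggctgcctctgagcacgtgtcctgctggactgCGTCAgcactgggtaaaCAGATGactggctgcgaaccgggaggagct
Gcg, chr2:62483654-62483803, minus strand: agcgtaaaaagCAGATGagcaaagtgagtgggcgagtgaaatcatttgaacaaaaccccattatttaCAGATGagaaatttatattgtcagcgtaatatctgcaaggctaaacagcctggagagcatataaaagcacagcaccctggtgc
Pyy, chr11:102107833-102107982, minus strand: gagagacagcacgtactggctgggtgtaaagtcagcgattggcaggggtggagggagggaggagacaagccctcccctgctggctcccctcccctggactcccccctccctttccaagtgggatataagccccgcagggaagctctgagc
Chga, chr12:102554791-102554940, plus strand: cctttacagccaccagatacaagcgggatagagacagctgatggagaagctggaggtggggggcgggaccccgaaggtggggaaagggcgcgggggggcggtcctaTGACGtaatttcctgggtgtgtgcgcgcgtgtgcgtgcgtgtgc
Tph1, chr7:46667378-46667527, minus strand: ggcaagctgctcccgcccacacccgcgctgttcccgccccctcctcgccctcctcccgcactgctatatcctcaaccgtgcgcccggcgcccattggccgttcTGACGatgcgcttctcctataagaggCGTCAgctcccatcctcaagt
Tph1, second start, chr7:46672538-46672687, minus strand: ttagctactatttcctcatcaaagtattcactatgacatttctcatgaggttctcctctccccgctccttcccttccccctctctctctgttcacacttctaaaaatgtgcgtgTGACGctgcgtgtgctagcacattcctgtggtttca
The Cck window holds the core on the strand opposite to the gene, starting 47 bases before the transcription start, and CAGATG starting 30 bases before it. The Gcg window holds CAGATG starting 139 and 83 bases before the start and no core. The Pyy window holds none of these letters. Matches are descriptions of sequence, and nothing about binding was measured.

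All 10 genes passed the filter of at least 1 CPM in at least 4 libraries, with CPM taken for the filter before TMM scaling. Insl5 did so in exactly 4 libraries. Between genes, levels were compared per length, as TPM (counts divided by the summed exon length of the gene and scaled within each library). In EPR fl/fl the order of mean TPM ran from Chgb (119 ± 39.6 TPM, SD, n = 6) and Chga (83.5 ± 37.1 TPM) through Sst (50.8 ± 22.4 TPM), Gcg (46.7 ± 11.3 TPM), Nts (44.7 ± 9.05 TPM) and Pyy (42.0 ± 11.2 TPM) to Tac1 (16.9 ± 6.21 TPM), Tph1 (16.8 ± 7.69 TPM), Cck (2.11 ± 1.08 TPM) and Insl5 (2.00 ± 1.17 TPM). The ranges of neighbours in this order overlapped except between Tph1 and Cck. Chgb was above Chga in 6 of 6 libraries, and Pyy was above Tac1 in 6 of 6. Among Sst, Gcg, Nts and Pyy no neighbouring pair kept its order in all 6 libraries. The exon length of Tph1, 4756 bases, sums over alternative exons and so lowers its TPM. In EPR cKO, Chgb and Chga were again the highest and Cck (4.74 ± 1.64 TPM) and Insl5 (1.86 ± 1.16 TPM) the lowest, and Cck was above Insl5 in 6 of 6 libraries, against 2 of 6 in EPR fl/fl.

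**Figure D1:**
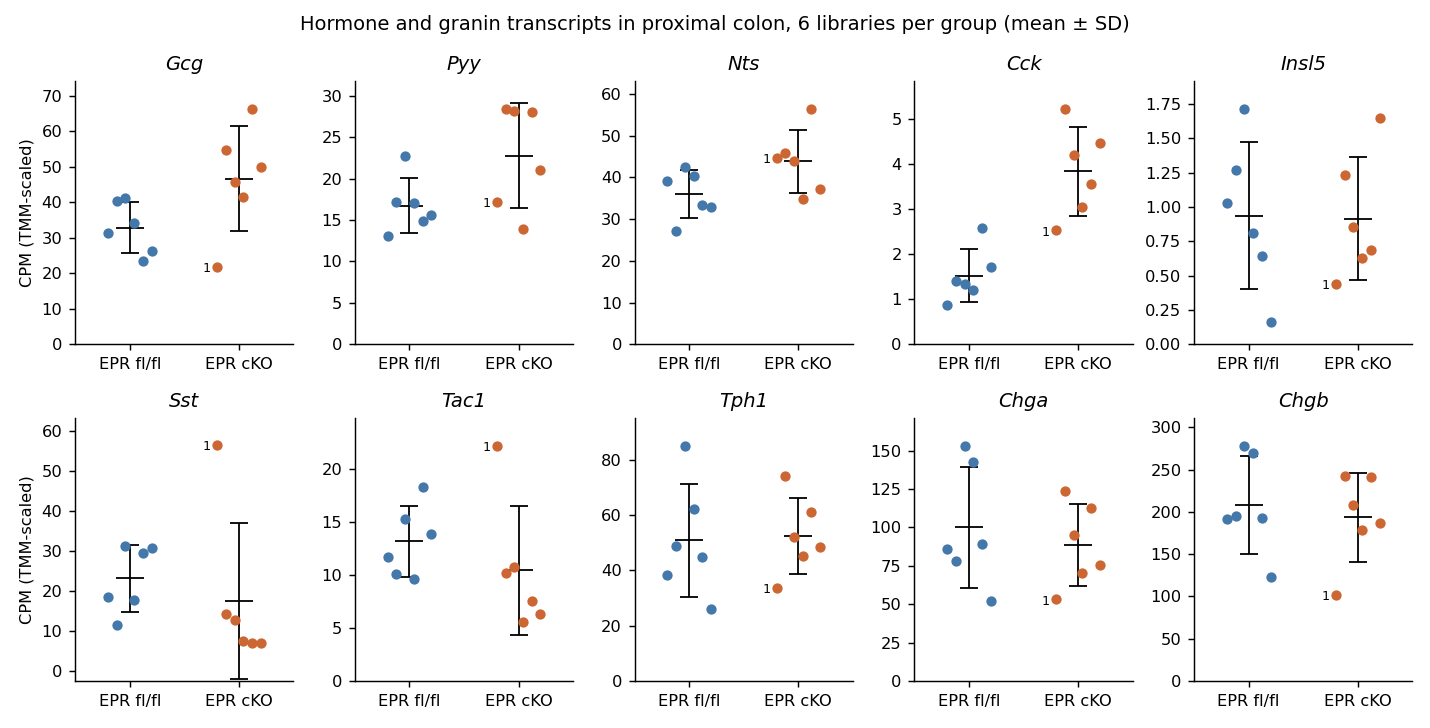
Level of each of the 10 transcripts in each library, in TMM-scaled CPM on linear axes; points are libraries in label order, bars are the mean ± SD of 6, and "1" marks EPR cKO 1. Cck lies higher in EPR cKO with 5 of 6 libraries above the highest EPR fl/fl library, while Sst and Tac1 have their highest value in EPR cKO 1.

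Of the 10 genes, 1 passed an adjusted p of 0.05 in edgeR's quasi-likelihood test, Cck, which was higher in EPR cKO. Over all 15952 tested genes 2.46% were called in either direction and 0.884% were called higher. None of the 10 genes passed the study's stricter thresholds on adjusted p and fold change, which 0.169% of all tested genes did. In no member were the groups apart in every library, and 2.47% of all tested genes had such groups. The median log2 fold change of the 10 genes was −0.02, with 5 positive and 5 negative, beside a median of 0.02 over all tested genes, of which 52.8% were positive.

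Cck encodes cholecystokinin, the hormone of I cells that stimulates gallbladder contraction and pancreatic enzyme release. In EPR fl/fl its level was 0.879, 1.40, 1.33, 1.203, 2.58 and 1.72 CPM in libraries 1 to 6. In EPR cKO it was 2.53, 5.22, 4.21, 3.04, 3.55 and 4.47 CPM. The groups overlapped only through EPR cKO 1 and EPR fl/fl 5, and the other 5 EPR cKO libraries were above every EPR fl/fl library. The level rose from 1.52 ± 0.59 CPM to 3.84 ± 0.99 CPM (SD, n = 6 each), a 2.54-fold difference with a 95% interval from 1.74 to 3.73 (log2 fold change 1.35, SE 0.26, edgeR adjusted p = 0.0152). The reads behind it were few, 12 to 43 per library in EPR fl/fl and 46 to 123 in EPR cKO. Leaving out each library in turn gave log2 fold changes from 1.23 to 1.54 with adjusted p from 0.00311 to 0.0492, and the call was lost with the composition score as a covariate (adjusted p = 0.0518), although the log2 fold change was then still 1.2502.

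Gcg encodes proglucagon, the source of the glucagon-like peptides of L cells, and Pyy encodes peptide YY, which is released by the same cells and slows transit and feeding. Gcg was at 31.3, 40.3, 41.3, 34.2, 23.6 and 26.4 CPM in EPR fl/fl 1 to 6 and at 21.9, 54.6, 45.7, 41.6, 66.2 and 49.99 CPM in EPR cKO 1 to 6. In all, 5 of the EPR cKO libraries were above all EPR fl/fl libraries, and EPR cKO 1 was below all of them. Over all libraries the log2 fold change was 0.50 (SE 0.22, edgeR adjusted p = 0.250), and without EPR cKO 1 it was 0.63 with an adjusted p of 0.0129. With the composition score as a covariate it was 0.02 (adjusted p = 0.983).

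Pyy was at 13.03, 17.1, 22.7, 17.0, 14.8 and 15.5 CPM in EPR fl/fl mice and at 17.2, 28.4, 28.2, 13.9, 27.997 and 21.0 CPM in EPR cKO. There were 3 EPR cKO libraries above the EPR fl/fl range and 3 within it (log2 fold change 0.44, SE 0.19, edgeR adjusted p = 0.240). Nts encodes neurotensin, which enteroendocrine cells of the distal gut make along with the L cell peptides. It was at 39.1, 27.2, 42.6, 40.4, 33.3 and 32.97 CPM in EPR fl/fl mice and at 44.8, 45.7, 43.9, 34.8, 56.3 and 37.3 CPM in EPR cKO. There were 4 EPR cKO libraries above the EPR fl/fl range (log2 fold change 0.29, SE 0.13, edgeR adjusted p = 0.267). Both genes kept an adjusted p above 0.05 in every alternative run. The 95% intervals of both folds lay just above 1, from 1.02 to 1.80 for Pyy and from 1.003 to 1.48 for Nts, before adjustment for the number of genes tested.

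Insl5 encodes insulin-like peptide 5, an L cell hormone known mainly from the distal colon. It was at 0.161 to 1.71 CPM (median 0.919) in EPR fl/fl and at 0.440 to 1.65 CPM (median 0.769) in EPR cKO, on 3 to 54 reads per library. The groups covered much the same range (log2 fold change −0.08, SE 0.44, edgeR adjusted p = 0.938). The 95% interval of the fold ran from 0.494 to 1.82, so a difference within it in either direction remained possible.

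Sst encodes somatostatin, the inhibitory peptide of D cells and of some enteric neurons. It was at 18.4, 11.3, 31.2, 17.6, 29.4 and 30.6 CPM in EPR fl/fl mice and at 56.5, 14.2, 12.5, 7.33, 6.98 and 6.87 CPM in EPR cKO. EPR cKO 1 was the highest of all 12 libraries, and the 3 lowest were also EPR cKO. Tac1 encodes the precursor of substance P, a peptide of enterochromaffin cells and of excitatory neurons. It was at 11.7, 10.1, 15.3, 9.65, 18.3 and 13.9 CPM in EPR fl/fl mice and at 22.2, 10.2, 10.8, 5.59, 7.58 and 6.34 CPM in EPR cKO, with the same library highest and 3 EPR cKO libraries below the EPR fl/fl range.

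Over all libraries neither gene passed the test: the log2 fold change was −0.41 (SE 0.51, edgeR adjusted p = 0.679) for Sst and −0.33 (SE 0.31, adjusted p = 0.574) for Tac1. Without EPR cKO 1 both were called lower, at −1.28 (adjusted p = 0.0100) and −0.72 (adjusted p = 0.0300). With the composition score as a covariate the signs turned, to 0.25 for Sst (adjusted p = 0.573) and 0.17 for Tac1 (adjusted p = 0.707). Enteric neuron genes moved with them. All 14 neuron genes were tested, and 12 were lower and 0 called over all libraries (median log2 fold change −0.45), while without EPR cKO 1 all 14 were lower and 11 were called (median −1.37), in a fit that called 14.4% of all tested genes lower. With the composition score as a covariate 13 of the 14 were higher and 1 was called, higher (median 0.21). Among the most abundant, Vip was at 16.5 ± 2.51 CPM in the EPR fl/fl group and 19.9 ± 21.0 CPM in EPR cKO, and Uchl1 at 13.8 ± 4.85 and 8.54 ± 9.94 CPM (SD, n = 6 each). The part of neurons in the Sst and Tac1 values was not tested further.

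**Figure D2:**
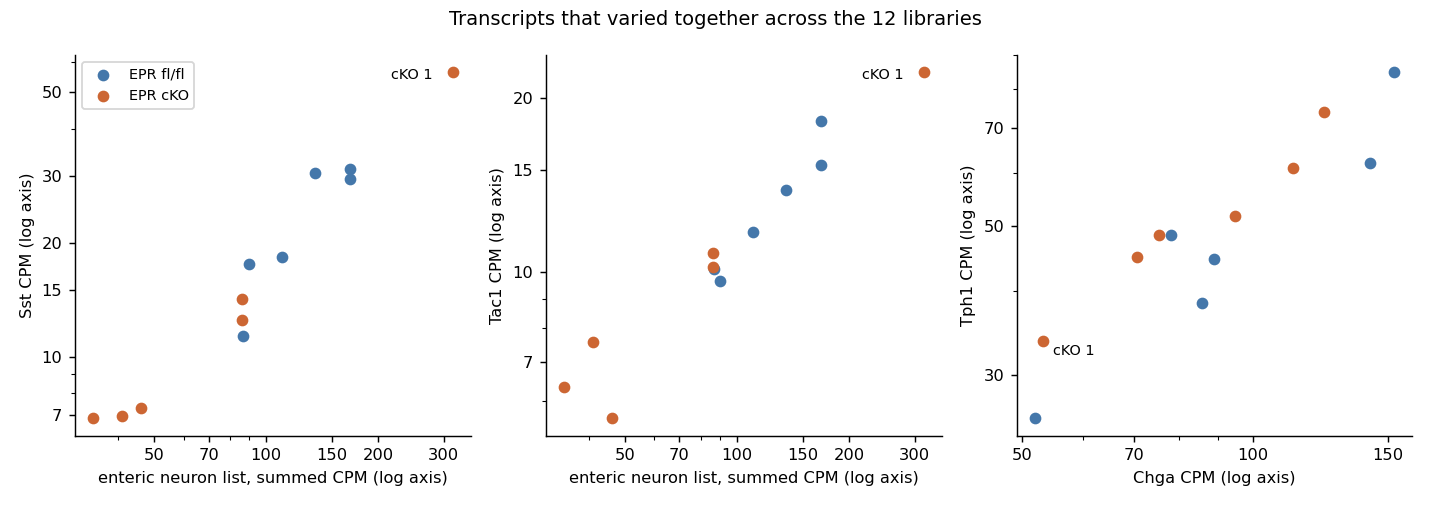
Left and centre, Sst and Tac1 CPM against the summed CPM of 14 enteric neuron genes; right, Tph1 against Chga CPM; 1 point per library, logarithmic axes. Sst and Tac1 climb with the neuron sum in both groups up to EPR cKO 1 (317 CPM), which lies near the bottom of the Chga and Tph1 range. Pearson's r with the smooth muscle list, not drawn here, was 0.96 for Sst and 0.92 for Tac1 (12 libraries, group means removed).

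Tph1 makes the first and rate-limiting step of serotonin synthesis in enterochromaffin cells, and Chga and Chgb encode chromogranins, acidic proteins packed into dense-core granules of most enteroendocrine cells. Tph1 was at 38.4, 48.6, 85.0, 62.2, 44.7 and 25.9 CPM in EPR fl/fl mice and at 33.7, 74.1, 51.9, 45.05, 61.0 and 48.5 CPM in EPR cKO. Chga was at 85.8, 78.1, 153, 142, 89.0 and 52.0 CPM in EPR fl/fl mice and at 53.2, 124, 94.7, 70.5, 113 and 75.5 CPM in EPR cKO. The groups overlapped throughout for both genes. Chgb ranged from 122 to 278 CPM (median 194) in EPR fl/fl and from 102 to 243 CPM (median 198) in EPR cKO, with EPR cKO 1 the lowest of the 12. None of the 3 passed the test. The 95% interval of the fold was 0.706 to 1.503 for Tph1 (log2 fold change 0.04, edgeR adjusted p = 0.940), 0.596 to 1.31 for Chga (−0.18, adjusted p = 0.728) and 0.668 to 1.29 for Chgb (−0.11, adjusted p = 0.811).

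**Figure D3:**
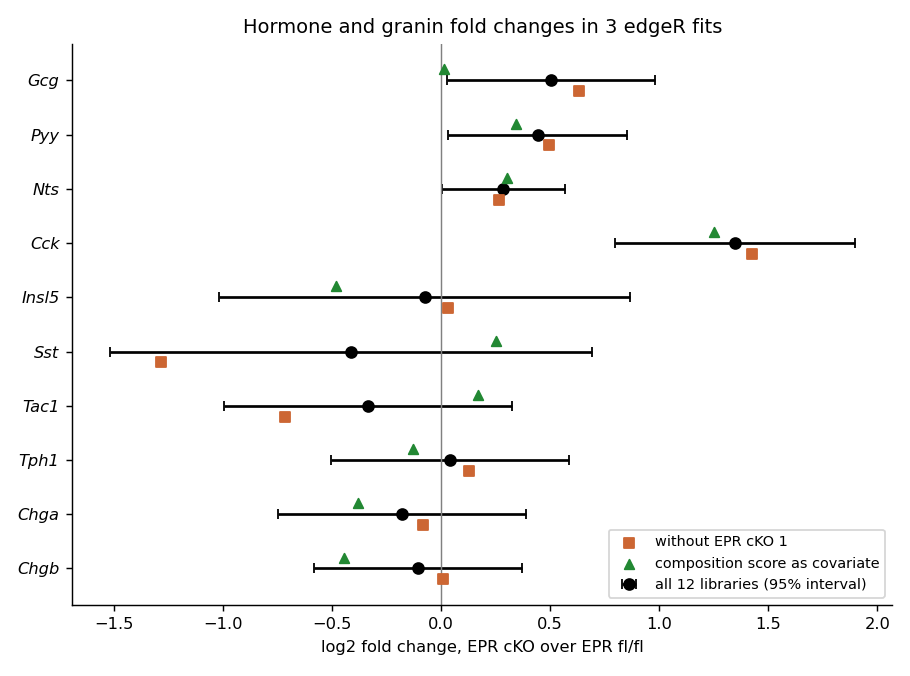
Log2 fold change of each transcript (EPR cKO over EPR fl/fl) from edgeR with all 12 libraries (circles, bars are 95% intervals), without EPR cKO 1 (squares) and with the composition score as covariate (triangles). Cck stays between 1.2502 and 1.43 in the 3 fits, whereas Sst moves from −1.28 to 0.25.

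The 10 transcripts fell into sets by how they varied between libraries of the same group. Correlations were taken over 12 libraries on log2 CPM with the group means removed, for 55 relations (the 45 pairs of members and each member with the mean level of the neuron list), with p from 100000 permutations of libraries within groups, the smallest possible p being 1e-05, and Benjamini-Hochberg adjustment over the 55. Of these, 8 passed 0.05 by Pearson's r. Tph1, Chga and Chgb formed 1 set: Pearson's r was 0.95 for Tph1 with Chga (Spearman's rho 0.88, permutation p = 2.00e-05 and 0.00086, adjusted 0.000275 and 0.00804), 0.95 for Chga with Chgb (rho 0.89, permutation p = 1e-05 and 0.00035, adjusted 0.000275 and 0.00481) and 0.92 for Tph1 with Chgb (rho 0.96, permutation p = 1e-05 for both, adjusted 0.000275 and 0.00055). Without the 2 libraries farthest from the median these were 0.93, 0.92 and 0.91, and within each group every r was at least 0.93. Gcg passed with part of this set, at an r of 0.83 to Chgb (rho 0.80, permutation p = 0.0045 and 0.00512, adjusted 0.0354 and 0.0256) and 0.70 to Tph1 (rho 0.83, permutation p = 0.00598 and 0.00309, adjusted 0.0411 and 0.0189), which were 0.75 and 0.76 without 2 libraries. With Chga it did not pass (r 0.68, rho 0.62, permutation p adjusted 0.0627 and 0.144). Pyy passed with none of these genes by Pearson's r (0.62 to 0.68). By Spearman's rho Pyy passed with Tph1 (0.85, permutation p adjusted 0.00804), Chgb (0.82, adjusted 0.00804), Gcg (0.79, adjusted 0.0256) and Chga (0.73, adjusted 0.0494).

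Sst and Tac1 formed the other set, with an r of 0.94 to each other (rho 0.85, permutation p = 0.00055 and 0.00117, adjusted 0.00504 and 0.00804) that was 0.89 without EPR cKO 1 and EPR fl/fl 2. With the neuron list the r was 0.97 for Sst (rho 0.92, permutation p = 2.00e-05 and 5.00e-05, adjusted 0.000275 and 0.00137) and 0.96 for Tac1 (rho 0.92, permutation p = 0.00034 and 0.00024, adjusted 0.00374 and 0.0044), and 0.94 for both without 2 libraries. With the smooth muscle list the r was nearly as high, 0.96 for Sst and 0.92 for Tac1. With the composition score it was −0.95 and −0.89. These values had no permutation test. Whether Sst and Tac1 follow neurons apart from the rest of the gut wall was not tested. The r of the other 8 members with the neuron list lay between −0.72 (Gcg) and 0.21 (Nts), and none passed the adjusted threshold. Cck had an r of −0.12 with the neuron list and of at most 0.38 with any other member, that with Pyy. The pooled values for Cck join groups of differing sign: in EPR cKO its r was 0.89 with Insl5, 0.82 with Tph1, 0.78 with Chgb, 0.77 with Chga and 0.72 with Gcg (n = 6), and in EPR fl/fl it was −0.42, −0.19, −0.31, −0.28 and −0.59. This difference between groups was not tested. Libraries share depth and tissue composition across genes, which all of these correlations contain.

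**Figure D4:**
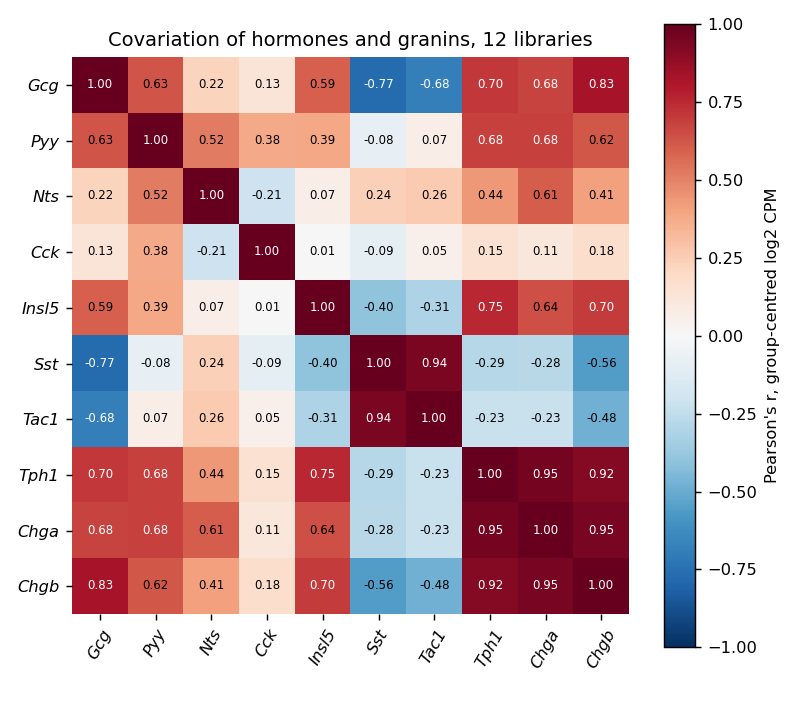
Pearson's r between transcripts over 12 libraries after removing group means from log2 CPM; colour runs from −1 (blue) to 1 (red). Tph1, Chga and Chgb (0.92 to 0.95) and Sst with Tac1 (0.94) form 2 blocks, and Cck is at 0.38 or below with every other transcript.

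The most similar tested gene outside the 10, by the same r and as a description, was Itm2c for Sst (0.99), Dner for Tac1 (0.99), Cyp2d10 for Tph1 (0.95), Hnf1aos2 for both Chga (0.91) and Chgb (0.94), Dynlt1c for Gcg (0.94), Ehmt2 for Pyy (0.93), Dio1 for Nts (0.93), Vopp1 for Insl5 (0.93) and Gm33051 for Cck (0.94). The third most similar gene to Tph1 was Slc18a1 (0.95), the vesicular monoamine transporter of enterochromaffin cells, which was singled out after its value was seen. Relative to Chga within the same library, the mean log2 ratio was higher in EPR cKO by 1.46 for Cck (−5.94 ± 0.86 to −4.48 ± 0.29, SD, n = 6 each), 0.60 for Gcg, 0.55 for Pyy, 0.43 for Nts and 0.24 for Tph1 (−0.98 ± 0.19 to −0.74 ± 0.11). The ratio of Insl5 differed by 0.22, that of Chgb by 0.03, that of Tac1 by −0.31 and that of Sst by −0.66. Each ratio also contains the difference in Chga itself (log2 fold change −0.18, edgeR adjusted p = 0.728). These ratios are given as a description with no test.

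The transcription factors that direct this lineage were examined next. Of 18 listed, 14 were tested, 0 passed, and 8 were higher and 6 lower (median log2 fold change 0.07). The largest difference was in Neurog3, which starts the enteroendocrine programme: its level was 0.439, 0.780, 0.475, 0.455, 0.358 and 0.484 CPM in EPR fl/fl mice and 0.440, 0.848, 1.45, 1.39, 1.34 and 2.13 CPM in EPR cKO, on 5 to 43 reads per library. There were 5 EPR cKO libraries above the EPR fl/fl range, with EPR cKO 1 within it (log2 fold change 1.31, SE 0.33, edgeR adjusted p = 0.0617). Without EPR cKO 1 the difference was called (1.45, adjusted p = 0.00399), and with the composition score as a covariate it was 0.48 (adjusted p = 0.461). Only EPR cKO 3, 4, 5 and 6 reached 1 CPM. Neurog3 thus passed the filter solely through the group in which it was higher, and its being tested at all depended on that group. The other call in the list without EPR cKO 1 was Prox1, in the opposite direction (−0.86, adjusted p = 0.00823). That fit called 21.8% of all tested genes. Neurod1, which acts after Neurog3, was at 3.55 ± 1.21 CPM in the EPR fl/fl group and 4.11 ± 0.71 CPM in EPR cKO (adjusted p = 0.631). Foxa1, which is broadly epithelial, was at 49.5 ± 9.64 and 48.3 ± 5.398 CPM (adjusted p = 0.889), and Foxa2 at 7.68 ± 1.05 and 6.31 ± 0.86 CPM (adjusted p = 0.268).

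Of the 15 granule and prohormone processing genes, all were tested and 2 were called lower, Ptprn2 and Pcsk1. Among all tested genes 2.46% were called in either direction. All 15 log2 fold changes were negative (median −0.34), and the summed level of the list was 360 to 562 CPM in EPR fl/fl and 221 to 728 CPM in EPR cKO, so the groups overlapped. Ptprn2, a dense-core vesicle membrane protein, was at 49.6, 60.7, 85.7, 67.7, 58.5 and 55.4 CPM in EPR fl/fl mice and at 28.5, 27.0, 24.8, 21.4, 26.0 and 20.3 CPM in EPR cKO. Every EPR cKO library was below every EPR fl/fl library (log2 fold change −1.35, SE 0.13, edgeR adjusted p = 0.000103), and the call held in all 9 alternatives and all 12 fits without 1 library. Pcsk1 encodes the convertase that cleaves proglucagon to the glucagon-like peptides and also processes other gut prohormones. It fell from 39.6 ± 9.49 to 24.5 ± 2.31 CPM (SD, n = 6 each) with the groups apart in every library (log2 fold change −0.69, SE 0.14, edgeR adjusted p = 0.0218). That call was lost in 3 of the 12 fits that leave out 1 library (adjusted p up to 0.0582) and in 2 of the 9 alternatives, among them the composition score as a covariate (−0.63, adjusted p = 0.0907).

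The other granule genes include ones that enteric neurons share. Cpe, a carboxypeptidase of prohormone processing, was at 118 ± 29.6 CPM in the EPR fl/fl group and 78.5 ± 81.0 CPM in EPR cKO (edgeR adjusted p = 0.513), Pam, the amidating enzyme, at 161 ± 29.1 and 158 ± 63.9 CPM (adjusted p = 0.961), and Scg2, a secretogranin, at 20.9 ± 8.53 and 15.1 ± 17.3 CPM (adjusted p = 0.645). Without EPR cKO 1 the list had 7 genes called lower, in a fit that called 14.4% of all tested genes lower. With the composition score as a covariate the list had 1 call, Ptprn2, while 13 of the 15 signs became positive.

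**Figure D5:**
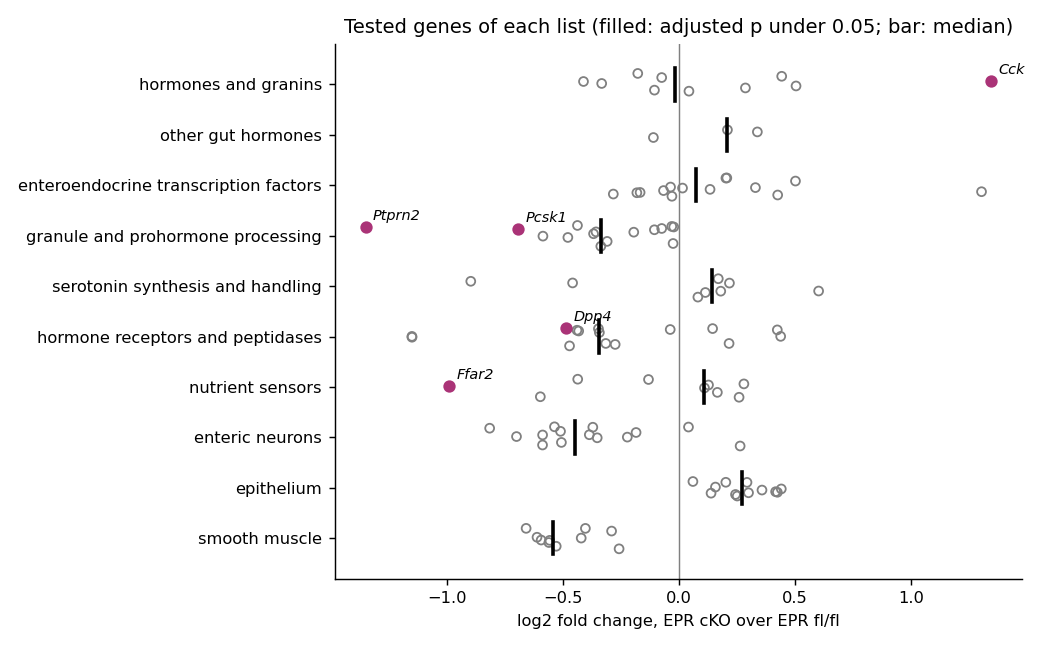
Log2 fold change (EPR cKO over EPR fl/fl) of every tested gene in 10 of the lists, without the mast cell, goblet, glial, enterocyte, tuft and adipocyte lists; filled points passed an adjusted p of 0.05 and are named, open points did not, and black bars are list medians. Cck is the 1 call above 0, Ptprn2, Pcsk1, Dpp4 and Ffar2 are the calls below 0 among the lists shown, and the neuron and smooth muscle lists lie mostly to the left.

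Genes of serotonin synthesis and handling gave 0 calls among the 8 tested of 9 listed, with 6 higher and 2 lower (median log2 fold change 0.14). Maoa, which degrades serotonin and is abundant in epithelium, was at 1115 ± 84.4 CPM in the EPR fl/fl group and 1254 ± 251 CPM in EPR cKO (edgeR adjusted p = 0.479), and Ddc, the second enzyme of synthesis, was at 30.8 ± 3.94 and 34.9 ± 4.51 CPM (adjusted p = 0.390). Qdpr and Pts, of the cofactor pathway, had adjusted p of 0.171 and 0.545. Without EPR cKO 1 there were 3 calls, Gch1 and Qdpr higher and Slc18a2 lower, in a fit that called 21.8% of all tested genes. Mast cells also make serotonin in mice, by the same Tph1. Of the 9 mast cell genes 3 were tested, and the 1 called was Kit, which fell from 107 ± 28.5 to 45.3 ± 15.4 CPM (log2 fold change −1.25, edgeR adjusted p = 0.00740) and is known also from pacemaker cells of the muscle layer. The proteases Mcpt1 (3.48 ± 6.09 and 14.4 ± 10.9 CPM, adjusted p = 0.254) and Mcpt2 (1.41 ± 2.82 and 5.203 ± 4.15 CPM, adjusted p = 0.329) varied widely within groups.

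Of the other 10 gut hormones listed, 3 were tested and 0 were called. Sct, which encodes secretin, was at 24.3 ± 3.10 CPM in the EPR fl/fl group and 30.7 ± 9.19 CPM in EPR cKO (edgeR adjusted p = 0.301), Iapp at 2.03 ± 1.49 and 2.37 ± 0.69 CPM (adjusted p = 0.827) and Ppy at 0.998 ± 0.502 and 0.942 ± 0.344 CPM (adjusted p = 0.877). Gip and Gast, hormones of the upper gut, had 0 reads in all 12 libraries, which allows up to 3 reads over the 12. None of the 8 pancreatic genes listed passed the filter, and Ins1, Ins2 and Amy2a5 had 0 reads.

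Among nutrient sensors, 9 of 12 were tested and 1 was called, Ffar2, a receptor for short-chain fatty acids found on L cells, colonocytes and leukocytes. It was at 12.4, 18.5, 21.6, 19.3, 18.2 and 15.5 CPM in EPR fl/fl mice and at 4.35, 9.88, 11.1, 9.38, 9.17 and 9.21 CPM in EPR cKO, with every EPR cKO library below every EPR fl/fl library (log2 fold change −0.99, SE 0.20, edgeR adjusted p = 0.0189). The call held in all 9 alternatives and in 10 of the 12 fits without 1 library (adjusted p up to 0.0584). Ffar4, a long-chain fatty acid receptor, was at 20.2 ± 3.92 and 13.4 ± 4.44 CPM (adjusted p = 0.121), and Slc5a1, the glucose cotransporter by which L cells sense sugar, at 137 ± 13.8 and 149 ± 25.2 CPM (adjusted p = 0.580).

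Of 23 hormone receptors and peptidases, 15 were tested and 1 was called, Dpp4, the peptidase that inactivates glucagon-like peptide 1 and trims peptide YY. It fell from 38.2 ± 5.59 to 27.2 ± 3.57 CPM (SD, n = 6 each) with the groups apart in every library (log2 fold change −0.49, SE 0.11, edgeR adjusted p = 0.0403), and 9 of the 12 fits without 1 library lost the call (adjusted p up to 0.101). Sstr1, a somatostatin receptor, was at 24.2 ± 6.15 and 17.8 ± 3.51 CPM (adjusted p = 0.238). Over the list 4 were higher and 11 lower (median −0.34), and with the composition score as a covariate 9 were higher and 6 lower (median 0.05). Without EPR cKO 1 there were 7 calls, all lower, among them the receptors Cckar, Npy2r, Npy4r, Tacr2 and Glp2r, where 14.4% of all tested genes were called lower.

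The other cell type lists place these values in the tissue. All 12 epithelial genes were higher in EPR cKO with 0 called (median log2 fold change 0.27), and all 10 smooth muscle genes were lower with 0 called (median −0.54). With EPR cKO 1 left out, 5 epithelial genes were called higher and all 10 smooth muscle genes lower. That fit called 7.44% of all tested genes higher and 14.4% lower. Goblet cell genes, of another secretory lineage, were all lower, and 5 of 8 were called, against 2.46% of all tested genes in either direction. The 5 were Muc2 (−2.19, edgeR adjusted p = 0.000741), Clca1, Zg16, Tff3 and Spdef. With the composition score as a covariate 5 were called, Clca1 not among them. Of the 12 fits without 1 library, Muc2 was called in 12, Tff3 in 10, Zg16 in 8, Clca1 in 7 and Spdef in 2. Of 4 glial, 8 enterocyte, 7 tuft cell and 6 adipocyte genes tested, 0 were called over all libraries, with medians of −0.17, 0.52, 0.04 and −1.47. At an unadjusted p under 0.05, 1777 of all tested genes were higher and 1136 lower.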

How the data were processed

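RNA-Seq libraries of whole proximal colon were prepared by the authors with a stranded kit and ribosomal RNA depletion, aligned with STAR 2.5.3a to mm10 and counted with featureCounts against Ensembl GRCm38. The deposited values are raw counts per gene with summed exon lengths. Whether counting used the strand is not stated, and no exon of the 10 genes overlaps an exon of another gene in the deposited annotation. The 10 genes, the gene lists and the tests were chosen with earlier results of these data known.

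Genes with at least 1 CPM in at least 4 libraries (15952) were tested with edgeR 4.0.16 in R 4.3.3 (TMM, quasi-likelihood F test, EPR cKO against EPR fl/fl, Benjamini-Hochberg adjustment over all tested genes). SEs are the absolute log2 fold change over the square root of F, and 95% intervals use edgeR's total degrees of freedom (residual and prior). CPM is TMM-scaled. Alternatives were DESeq2 1.42.0, limma 3.58.1 voom, other scalings and filters, a composition covariate and leaving out each library. Groups came from the sample labels. Deviations from the group means in libraries with the same replicate number correlated between −0.24 and 0.34. P-values measure the spread between animals. Named genes were the 10, every gene of another list past an adjusted p of 0.05, and otherwise up to 4 per list by mean TPM, and the 1 most correlated gene per member. Neurog3, Gch1, Ghrl, Glp1r, Slc6a4, Slc18a1, Slc18a2, Ins1, Ins2, Amy2a5, Gip, Gast and the receptors called without EPR cKO 1 were named after their values were seen. Analysis code was tested on simulated data.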

Additional observations from a re-analysis of the deposited data

Results flagged for a closer look

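Within each group of 6 libraries, the highest and the lowest values were compared with the rest by Dixon's ratio, for 54 groups, of which 9 had a value standing apart. Chance gives about 1 in 20. Of the 9, 6 were in EPR cKO 1. In that library Sst was at 56.5 CPM, against 6.87 to 14.2 CPM in the other EPR cKO libraries, and Tac1 was at 22.2 CPM, against 5.59 to 10.8 CPM. The summed level of the enteric neuron genes was 317 CPM there, against 34.3 to 86.2 CPM, and that of the smooth muscle genes 9709 CPM, against 1086 to 2824 CPM. Kit was at 75.8 CPM, against 34.7 to 45.9 CPM, and Ffar2 was the lowest at 4.35 CPM, against 9.17 to 11.1 CPM. Muc2 was lowest in EPR cKO 5 at 1073 CPM, against 1735 to 2028 CPM. Neurog3 was highest among EPR fl/fl in library 2 at 0.780 CPM, against 0.358 to 0.484 CPM, and EPR itself, listed as Smim31, was at 0.424 CPM in EPR cKO 2, against 0 to 0.134 CPM in the others of its group.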

How the results depend on the processing

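The call of Cck kept its direction in all 9 alternatives and 12 fits without 1 library, with log2 fold changes from 1.23 to 1.54, and lost its adjusted p of 0.05 with the composition score as a covariate. The number of the 10 genes called was 3 with limma-voom quality weights (Cck, Gcg at 0.55 and Sst at −1.01), 0 with the composition covariate, 1 to 4 without 1 library (4 without EPR cKO 1) and 1 otherwise. With DESeq2's Wald test 1 gene, Cck, passed the study thresholds, and 0 did in any fit without 1 library. Over all tested genes 392 were called, 913 with DESeq2, 3263 with quality weights, 245 with the replicate block and 176 to 3451 without 1 library (3451 without EPR cKO 1). The split was 141 higher and 251 lower, and 39 and 247 with total counts in place of TMM, 54 and 243 with no filter, 440 and 473 with DESeq2, 80 and 245 with the composition covariate. The same-numbered libraries correlated between −0.24 and 0.34, and 2 of 6 EPR cKO libraries correlated best with their own number. Whether any same-numbered libraries share more than the number was not tested. In the replicate block Cck remained the 1 called gene of the 10. Signs turned for Insl5 with limma-voom (0.0105) and with quality weights (0.13), for Sst (0.25), Tac1 (0.17) and Tph1 (−0.13) with the composition covariate, and without 1 library for Insl5 (EPR cKO 1 and 4, range −0.28 to 0.0306), Tph1 (EPR fl/fl 1 and 6, EPR cKO 2 and 5, range −0.0882 to 0.25) and Chgb (EPR cKO 1, range −0.22 to 0.00915); the cause was not tested. Insl5 and Neurog3 had no value in 4 fits without 1 library each because they fell under the filter. Depth limits Insl5, Cck and Neurog3, whose lowest libraries held 3, 12 and 5 reads. The list counts without EPR cKO 1 were chosen after seeing the data.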

Other observations

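Ghrl, which encodes the orexigenic hormone ghrelin of the upper gut, did not reach the level needed for the test and was singled out after its values were seen. It was measured at 0.133 ± 0.039 CPM in EPR fl/fl mice and 0.366 ± 0.155 CPM in EPR cKO mice (SD, n = 6 each), with every EPR cKO library above every EPR fl/fl library, on 71 reads in all 12 libraries. Of all tested genes 1.00% had groups apart with EPR cKO above, a share that does not cover genes below the filter such as Ghrl. Glp1r, the receptor of glucagon-like peptide 1, was also apart in every library (2.97 ± 0.50 and 4.02 ± 0.48 CPM, log2 fold change 0.44, edgeR adjusted p = 0.152). Slc6a4, the serotonin reuptake transporter, was at 2.74 ± 0.50 CPM in EPR fl/fl mice and 1.45 ± 0.72 CPM in EPR cKO mice (log2 fold change −0.90, edgeR adjusted p = 0.117), and Gch1, the first enzyme of the tetrahydrobiopterin cofactor pathway, was at 21.5 ± 3.79 and 32.7 ± 8.74 CPM (0.60, adjusted p = 0.0847).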
